A study of Mus musculus with 8 samples.

Results

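Globins are the protein chains of haemoglobin, and their messengers are among the most abundant transcripts of the red cell line. The 5 genes described here are the adult alpha globin genes Hba-a1 and Hba-a2, the adult beta globin genes Hbb-bs and Hbb-bt, and Alas2, the erythroid 5-aminolevulinate synthase that starts heme synthesis in red cell precursors. They were taken by symbol from a table of 51886 genes, and all 5 are in it. The table holds mouse granulosa cell libraries, the hormone-responsive cells that line the ovarian follicle, which has no blood vessels inside its basement membrane before ovulation.

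The 4 PGR-A KO and the 4 WT libraries came from knockout and wildtype mice of the PGR-A KO strain, named for the A isoform of the progesterone receptor. Per the labels all mice were 21 to 27 days old and all received 5 IU eCG, a hormone that grows follicles. They then received 5 IU hCG, which triggers ovulation, 46 hours later, and cells were taken 8 hours after hCG. Each library pooled the cells of 2 to 3 mice, so a value is a mean over animals.

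An adult haemoglobin molecule pairs alpha with beta chains, each holding a heme. Transcription of the globin genes and of Alas2 rises together in the bone marrow as red cell precursors mature. The reticulocyte, the young red cell that enters the blood, has lost its nucleus but still carries globin messengers. Granulosa cells make their own heme for the cytochrome P450 enzymes of steroid synthesis with Alas1, the widely expressed sister of Alas2.

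Hba-a1 (ENSMUSG00000069919.7) lies on chromosome 11, 32283511 to 32284465, and Hba-a2 (ENSMUSG00000069917.7) on chromosome 11, 32296489 to 32297298, both on the plus strand in GENCODE M21 on mm10. Hbb-bs (ENSMUSG00000052305.6) lies on chromosome 7, 103826534 to 103828096, and Hbb-bt (ENSMUSG00000073940.3) on chromosome 7, 103812524 to 103813996, both on the minus strand. Alas2 (ENSMUSG00000025270.13) lies on the X chromosome, 150547375 to 150570638, on the plus strand. Each globin gene has 3 exons in the annotated transcript used here, and Alas2 has 11.

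The globin genes are near copies of each other within each pair, which decides how well a quantifier can tell them apart. Hba-a1 and Hba-a2 differ at 1 of 429 coding bases (99.8% identity), and Hbb-bs and Hbb-bt at 1 of 444 (99.8%). The differing base is printed in capitals within 61 coding bases of each gene, read from the GENCODE M21 transcripts. The positions are chr11:32284313-32284373 for Hba-a1, chr11:32297130-32297190 for Hba-a2, chr7:103826665-103826725 for Hbb-bs and chr7:103812656-103812716 for Hbb-bt, each unbroken in the genome.
Hba-a1: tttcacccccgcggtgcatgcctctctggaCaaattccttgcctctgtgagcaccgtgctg
Hba-a2: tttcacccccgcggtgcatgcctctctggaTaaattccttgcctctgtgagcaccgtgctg
Hbb-bs: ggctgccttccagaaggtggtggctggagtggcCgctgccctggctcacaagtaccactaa
Hbb-bt: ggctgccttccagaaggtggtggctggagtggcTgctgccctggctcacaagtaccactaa
From Hba-a1 to Hba-a2 the substitution is C381T and from Hbb-bs to Hbb-bt it is C417T, counted from the first base of the start codon. Of all words of 31 bases in the annotated Hba-a2 transcript, 91.0% also occur in that of Hba-a1. The share is 71.3% in the other direction, since the Hba-a1 model is longer (699 against 554 bases). For the beta pair 66.9% of the Hbb-bs words occur in Hbb-bt and 59.4% of the Hbb-bt words in Hbb-bs. The level of a single globin gene therefore depends on how shared reads were divided and on the annotated ends, and the sums over a pair do so less.

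The promoters carry the same near identity in the alpha pair. Over 297 bases around the RefSeq start, Hba-a1 and Hba-a2 are identical at all 297 once shifted by 3 bases, so a single alpha promoter is printed. The 250 bases before the RefSeq start (GRCm38.p6, 5′ to 3′ on the gene's strand) are shown as a description. A link between them and the levels in these libraries was not tested. Capitals mark 4 short words on either strand. The word GATAA is read by GATA factors, the word CACCC by Kruppel-like factors such as KLF1, and the words TATAA and (further upstream) CCAAT are promoter elements. The windows lie at chr11:32296242-32296491 (plus strand) for Hba-a2, chr7:103827929-103828178 (minus strand) for Hbb-bs and chrX:150547167-150547416 (plus strand) for Alas2. The RefSeq and GENCODE M21 starts differ, so the end of each window nearest the start lies inside the GENCODE gene span given above. The GENCODE span begins at 32296489 for Hba-a2 and 150547375 for Alas2, and on the minus strand at 103828096 for Hbb-bs.
Hba-a2: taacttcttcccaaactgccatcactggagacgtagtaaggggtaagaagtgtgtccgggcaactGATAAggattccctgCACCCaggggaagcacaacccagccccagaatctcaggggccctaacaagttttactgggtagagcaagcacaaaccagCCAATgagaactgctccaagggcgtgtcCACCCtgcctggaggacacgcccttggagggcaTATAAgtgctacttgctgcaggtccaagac
Hbb-bs: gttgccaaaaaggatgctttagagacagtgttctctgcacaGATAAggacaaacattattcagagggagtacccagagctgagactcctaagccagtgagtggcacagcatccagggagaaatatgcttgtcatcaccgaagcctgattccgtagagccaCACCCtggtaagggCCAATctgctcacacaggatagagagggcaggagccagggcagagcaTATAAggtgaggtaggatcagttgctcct
Alas2: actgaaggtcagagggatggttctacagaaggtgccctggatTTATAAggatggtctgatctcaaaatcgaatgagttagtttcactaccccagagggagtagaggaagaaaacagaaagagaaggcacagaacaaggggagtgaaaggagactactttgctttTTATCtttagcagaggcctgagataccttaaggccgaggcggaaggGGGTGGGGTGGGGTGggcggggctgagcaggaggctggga
The 4 globin promoters hold all 4 of these words, and that of Alas2 holds 3, without CCAAT. In Alas2 the TATAA matches on the opposite strands overlap. These words are short and common. Of 32851 RefSeq promoter windows of this length, 22.8% hold the word TATAA, 22.6% the word GATAA, 52.0% the word CACCC and 33.8% the word CCAAT, and 0.968% hold all 4. A match is a description of the letters and not a site of binding.

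Levels are in TPM, a transcript abundance scaled to transcript length and to a fixed library total, so they can be compared between genes; the sequencing depth behind them is unknown. Means are given with the SD over the 4 libraries of a genotype. All 10 granulosa markers passed the filter on low values (at least 1 TPM in at least 4 libraries), led by the inhibin gene Inha with 3552 ± 515 TPM over the PGR-A KO libraries and 4063 ± 549 TPM over WT. Pgr itself, summed over isoforms and so no check of the A isoform, had 3.21, 3.52, 2.01 and 3.08 TPM in PGR-A KO replicates 1 to 4 and 1.56, 0.878, 1.41 and 0.756 TPM in WT (limma adjusted p = 0.445). Pairs of libraries had correlations of 0.970 to 0.991. In bulk RNA, fewer cells of a type and less RNA per cell cannot be told apart.

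Globin messengers were abundant in both genotypes and differed far more between libraries of a genotype than between genotypes. Hbb-bs, the major adult beta globin of this table, stood at 2187, 1439, 2520.4 and 1995 TPM in PGR-A KO replicates 1 to 4. It stood at 1611, 669, 4507 and 1992 TPM in WT replicates 1 to 4. WT replicate 2 was the lowest and WT replicate 3 the highest of the 8 libraries, and the PGR-A KO libraries all lay between them. By mean TPM Hbb-bs ranked 29 of 51886 genes.

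Hba-a2, which encodes the alpha chain, stood at 1917, 1298, 2182 and 1651 TPM in PGR-A KO and at 1461, 613, 3955 and 1727 TPM in WT. Hba-a1, its neighbour, stood at 1052, 709.7, 1196 and 896 TPM in PGR-A KO and at 840.3, 346, 2251 and 948 TPM in WT. Both repeated the order of Hbb-bs at the ends, with WT replicate 2 lowest and WT replicate 3 highest. Hbb-bt, the minor adult beta globin of this table, stood at 332, 203, 401 and 318 TPM in PGR-A KO and at 235, 99.1, 626 and 274 TPM in WT. The range across the 8 libraries was 6.50-fold for Hba-a1, 6.45-fold for Hba-a2, 6.73-fold for Hbb-bs and 6.32-fold for Hbb-bt. These ranges were nearly equal although the mean levels of the genes ran from 309 TPM (Hbb-bt in WT) to 2195 TPM (Hbb-bs in WT).

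Alas2 was present at a low level and moved over the same range. It stood at 14.6, 10.5, 19.5 and 17.1 TPM in PGR-A KO and at 10.6, 5.03, 30.8 and 12.7 TPM in WT, a 6.12-fold range. As for the globins, WT replicate 2 was lowest and WT replicate 3 highest, and the groups overlapped.

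**Figure D1:**
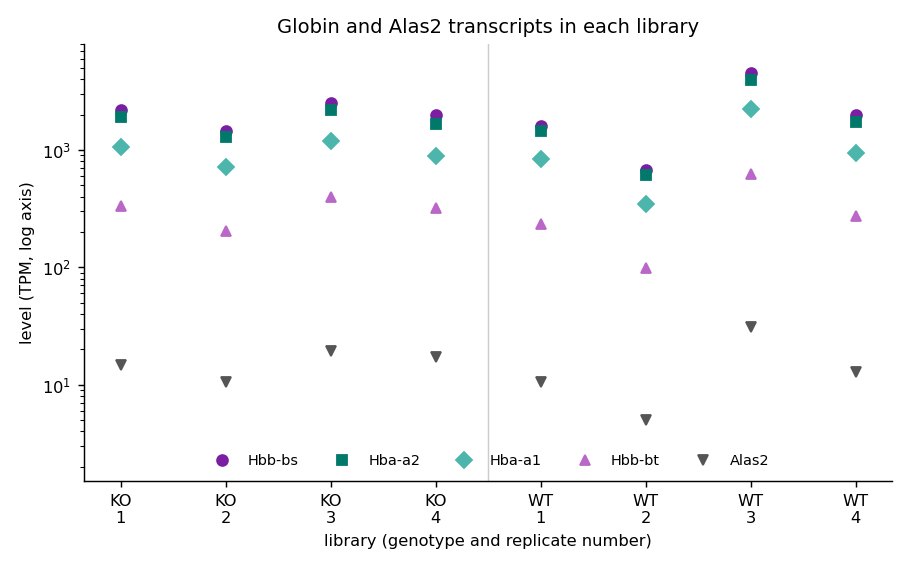
Level of each of the 5 genes in TPM (log axis) in the 4 PGR-A KO and 4 WT libraries, 1 point per library and gene. The 5 genes keep nearly constant distances from library to library, and WT replicates 2 and 3 hold the lowest and highest value of each gene.

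None of the 5 genes passed the test between genotypes, and the spread within WT limits what could be seen. In a limma fit of log2(TPM + 1) over 14472 genes, 2 genes passed a Benjamini-Hochberg adjusted p of 0.05, which is 0.0138%, and 0 of the 5 were among them. At an unadjusted limma p under 0.05 the count was 0 of 5, beside 913 of all genes tested, or 6.31%. Groups that do not overlap were found in 3.42% of all genes tested and in 0 of these 5.

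The log2 difference, PGR-A KO minus WT, was 0.18 (SE 0.48, limma adjusted p = 0.961) for Hbb-bs, with a 95% interval of -0.91 to 1.27. It was 0.14 (SE 0.47, adjusted p = 0.969) for Hba-a2 and 0.091 (SE 0.47, adjusted p = 0.980) for Hba-a1. For Hbb-bt it was 0.27 (SE 0.47, adjusted p = 0.947) and for Alas2 0.28 (SE 0.43, adjusted p = 0.940, 95% interval -0.69 to 1.25). As a ratio of KO to WT the interval of Hbb-bs runs from 0.531 to 2.41 and that of Alas2 from 0.622 to 2.39. The sign of the log2 difference turned below 0 for all 5 genes without WT replicate 2, where the values lay between -0.36 (Hba-a1) and -0.092 (Alas2). Without PGR-A KO replicate 3 it also turned for Hba-a1, to -0.022. Without WT replicate 3 the differences rose to between 0.54 (Hba-a1) and 0.71 (Hbb-bt).

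Few genes as abundant as the 4 globins varied as much between pools. The SD of log2 level within genotypes was 0.83 for Hbb-bs, 0.81 for Hba-a1, 0.81 for Hba-a2 and 0.82 for Hbb-bt. The median over the 1336 tested genes with a mean of at least 100 TPM was 0.14, and 99.9% of them had a lower SD than Hbb-bs. Alas2, at a lower level, had an SD of 0.74, and 98.6% of all genes tested had a lower one. The spread came mostly from WT. The coefficient of variation of Hbb-bs was 22.3% in PGR-A KO and 74.7% in WT, where replicates 2 and 3 stand at the ends.

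The 4 globins together took 0.551%, 0.367%, 0.632% and 0.487% of all TPM in PGR-A KO replicates 1 to 4, and 0.416%, 0.173%, 1.14% and 0.496% in WT replicates 1 to 4. Summed, they averaged 5074 ± 1117 TPM over PGR-A KO and 5539 ± 4101 TPM over WT (SD, n = 4 each). From the highest to the lowest library the order was WT 3, KO 3, KO 1, WT 4, KO 4, WT 1, KO 2 and WT 2. WT 4 and KO 4, next to each other at 4941 and 4860.2 TPM, were the closest neighbours. The exact 2-sided permutation test over 70 assignments gave p = 0.771 for the log2 sum, which differed by 0.15. The smallest p that test can give is 0.0286. On the linear scale the sign of the difference turned, with the higher mean in WT.

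The globin share was small enough to leave other genes nearly untouched. Since TPM sum to a fixed total, globin transcripts lower all other values by a common factor. That factor was 0.0025 on the log2 scale in WT replicate 2 and 0.017 in WT replicate 3. With the globins removed and TPM rescaled, the count of genes past the threshold stayed at 2.

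Within a library the genes held nearly fixed ratios while their levels moved more than 6-fold. The alpha to beta ratio, Hba-a1 plus Hba-a2 over Hbb-bs plus Hbb-bt, was 1.18, 1.22, 1.16 and 1.10 in PGR-A KO and 1.25, 1.25, 1.21 and 1.18 in WT. It averaged 1.16 ± 0.0505 over PGR-A KO and 1.22 ± 0.0321 over WT (SD, n = 4 each). WT replicates 2 and 3, at the ends of the globin order, had nearly the same ratio. The groups overlapped (exact permutation p = 0.114, adjusted over 4 ratios 0.143).

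The ratio of Hbb-bt to Hbb-bs was 0.152, 0.141, 0.159 and 0.159 in PGR-A KO and 0.146, 0.148, 0.139 and 0.137 in WT (exact permutation p = 0.114, adjusted 0.143). Hba-a2 stood above Hba-a1 in each library, with ratios of 1.82, 1.83, 1.83 and 1.84 in PGR-A KO and 1.74, 1.77, 1.76 and 1.82 in WT. The groups of that ratio did not overlap, but WT replicate 4 reached 1.821 and PGR-A KO replicate 1 stood at 1.822. Its exact permutation p was 0.0286, the smallest possible, and 0.114 adjusted over the 4 ratios. The alpha genes share most of their sequence, and the part of how reads were divided between them was not tested.

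Alas2 kept a similar place relative to the globins. Per 1000 TPM of summed globin it stood at 2.67, 2.88, 3.09 and 3.51 TPM in PGR-A KO and at 2.55, 2.91, 2.71 and 2.57 TPM in WT. The highest value was only 1.38 times the lowest, and the groups overlapped (exact permutation p = 0.143, adjusted 0.143).

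**Figure D2:**
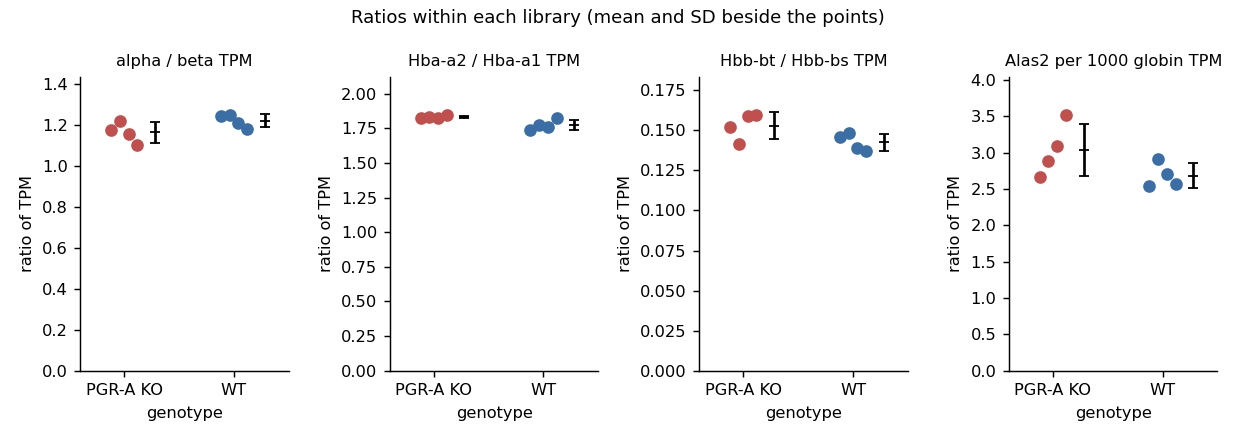
Ratios of TPM within each library in PGR-A KO (red) and WT (blue), 1 point per library, with the mean and SD (n = 4) beside them and each axis starting at 0. The Hba-a2 to Hba-a1 ratio lies between 1.74 and 1.84 in all 8 libraries.

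Across the 8 libraries the 5 genes rose and fell together, pair by pair. Pearson's r on the log2(TPM + 1) scale was 0.999 for Hba-a1 with Hba-a2 (Spearman's rho 1.0) and 0.994 for Hbb-bs with Hbb-bt (rho 1.0). An exact permutation over all 40320 pairings gave p = 2.48e-05 for both r, the smallest that it can give, and 0.000106 adjusted over the 10 pairs. Each of these pairs is made of near copies whose shared reads a quantifier must divide. The part of that division in their r was not tested. Alpha and beta genes, from different chromosomes, reached 0.999 for Hba-a2 with Hbb-bs (rho 0.976) and 0.986 for Hba-a1 with Hbb-bt (rho 0.976). Alas2, which is no copy of a globin, had r of 0.969 with Hba-a1 (rho 0.929, exact permutation p = 0.000769, adjusted 0.000769) and 0.990 with Hbb-bt (rho 0.976, adjusted p = 0.000106). The adjusted exact permutation p of rho was at most 0.00223 in the 10 pairs.

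WT replicates 2 and 3 are the libraries farthest from the median, and r was 0.808 or more in each of the 10 pairs without them. Over the other 6 libraries r was 0.974 for Hba-a1 with Hbb-bs and 0.990 for Hba-a2 with Hbb-bs. For Alas2 it was 0.808 with Hba-a1 (exact permutation p = 0.0542), 0.846 with Hba-a2 (0.0347), 0.898 with Hbb-bs (0.0139) and 0.949 with Hbb-bt (0.00694). The first of these no longer passed an unadjusted 0.05. With group means subtracted, r over the 8 libraries was 0.980 or more in each of the 10 pairs.

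Embryonic and other globins were at or near 0, apart from Cygb. Of 14 genes of the alpha and beta globin loci in the table, 5 were listed at 0 in all 8 libraries, and the highest value among those other than the 4 adult genes was 0.825 TPM. That was Hbq1a, a theta-like globin, in WT replicate 3, with 0.0632 to 0.672 TPM elsewhere. Cygb, the cytoglobin of fibroblast-like cells, stood at 8.20 ± 0.746 TPM over PGR-A KO and 9.58 ± 0.962 TPM over WT (SD, n = 4 each, limma adjusted p = 0.795). It was the single tested gene of 13 other globins in the table.

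A gene of the mature red cell membrane was under 1 TPM and followed the globins. Slc4a1, the anion exchanger band 3 of the red cell membrane, was under the filter, at 0.400, 0.202, 0.493 and 0.261 TPM in PGR-A KO and 0.238, 0.0807, 0.610 and 0.229 TPM in WT. Its ends were again WT replicates 2 and 3, and its range was 7.55-fold. Over 8 libraries its r with the summed globin was 0.931 (rho 0.929), and without WT replicates 2 and 3 it was 0.884. The gene was singled out after its values were seen, so no p is given.

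Gata1 and Klf1, genes of red cell precursors, did not show this order. Gata1, the master transcription factor of the erythroid line, stood at 0.493 ± 0.110 TPM over PGR-A KO and 0.697 ± 0.158 TPM over WT (SD, n = 4 each), with its highest value in WT replicate 2. Klf1, the factor that switches on adult beta globin, averaged 0.223 ± 0.0672 and 0.192 ± 0.0125 TPM (SD, n = 4). Rhag, a Rhesus-associated membrane protein, was at 0.0523 TPM or less in each library. Of the 14 genes listed as markers of erythroid cells, 13 were in the table, 5 of them (the genes described here) passed the filter, and 7 averaged under 1 TPM.

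**Figure D3:**
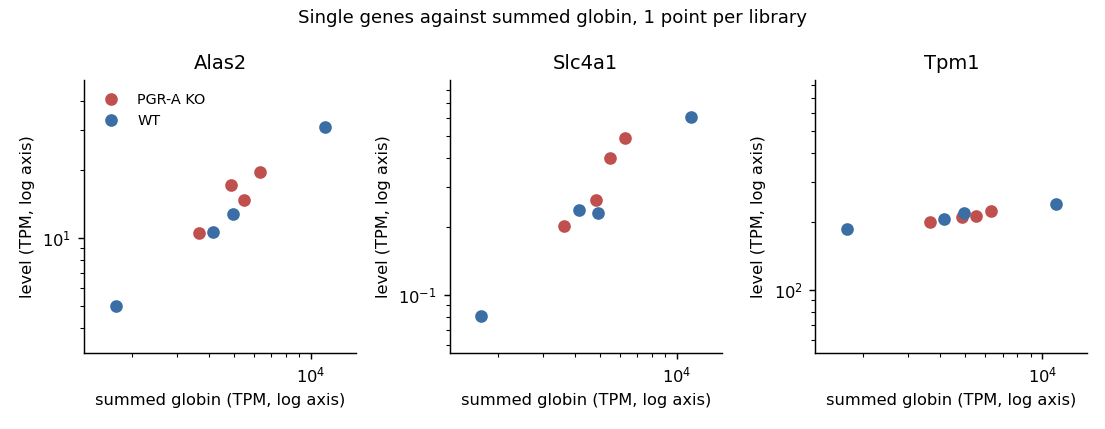
Level of Alas2, Slc4a1 and Tpm1 against summed globin (both in TPM, log axes), 1 point per library, PGR-A KO in red and WT in blue, with the same span on each vertical axis. Alas2 and Slc4a1 span 6.12-fold and 7.55-fold, and Tpm1 1.29-fold.

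The genes most like the summed globin were sought by Pearson's r over the 8 libraries among tested genes with a mean of at least 5 TPM. The 10 highest, chosen by r and so given without a test, were Tpm1, Smad7, Cpne8, Ube2l6, Fkbp11, Thyn1, Rnf34, Itga3, Map7 and Akr1b7, with r from 0.969 down to 0.876. All 10 had their lowest value in WT replicate 2 and their highest in WT replicate 3, as did 373 of 14467 tested genes (2.58%). Tpm1, which encodes a tropomyosin of the actin cytoskeleton, led with r of 0.969 (rho 0.976). Its range was 186 to 239 TPM, far narrower than that of the globins. Without WT replicates 2 and 3, r was 0.894 for Tpm1, 0.878 for Ube2l6, 0.647 for Cpne8 and -0.37 for Smad7. Over all tested genes other than the members, 13 of 14467 (0.0899%) reached an r of 0.9.

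The other heme and iron genes showed no difference past the threshold between genotypes. Alas1 was higher than Alas2 at 157 ± 29.8 TPM over PGR-A KO and 142 ± 20.2 TPM over WT (SD, n = 4 each), and its lowest library was PGR-A KO replicate 3. All 17 listed genes of heme synthesis passed the filter, 5 with higher and 12 with lower log2 means in PGR-A KO, and 0 passed the threshold. The lowest p among them was that of Cpox, coproporphyrinogen oxidase, with 19.0 ± 1.93 TPM over PGR-A KO and 23.5 ± 3.18 TPM over WT (SD, n = 4 each, limma adjusted p = 0.783). The list's median log2 difference was -0.029, beside -0.023 over all genes tested.

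Heme breakdown and haemoglobin clearance genes were 3 higher and 7 lower of 10 tested, with 0 past the threshold and a median of -0.057. Hmox1, the inducible heme oxygenase, stood at 40.8 ± 5.93 TPM over PGR-A KO and 36.8 ± 5.41 TPM over WT (SD, n = 4 each). The heme transporter Slc48a1 had the lowest p (22.7 ± 2.94 and 26.3 ± 1.07 TPM, SD, n = 4, limma adjusted p = 0.783), and the scavenger receptor Lrp1 the highest level (159 ± 33.3 and 179.6 ± 46.2 TPM, SD, n = 4). Iron handling genes were 6 higher and 4 lower of 10 tested, with 0 past the threshold and a median of 0.040. Ftl1, the ferritin light chain, was the most abundant at 1528 ± 185 and 1533 ± 100.4 TPM (SD, n = 4). Tfrc, the transferrin receptor, had the lowest p (45.8 ± 4.62 and 39.3 ± 5.01 TPM, SD, n = 4, limma adjusted p = 0.792).

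Of 10 tested red cell membrane genes 3 were higher and 7 lower, and of 11 tested red cell enzymes and late erythroid genes 6 were higher and 5 lower, with 0 past the threshold in both and medians of -0.043 and 0.056. Their most abundant members, the skeleton protein gene Epb41 (22.3 ± 1.86 and 23.9 ± 2.21 TPM, SD, n = 4) and the peroxiredoxin gene Prdx2 (562 ± 71.4 and 539 ± 53.2 TPM, SD, n = 4), are widely expressed. Tmod1 (6.73 ± 1.53 and 4.84 ± 1.59 TPM, SD, n = 4, limma adjusted p = 0.795) and Gclm (42.8 ± 3.21 and 47.6 ± 2.80 TPM, SD, n = 4, adjusted p = 0.795) had the lowest p. Erythroid transcription factors and the receptor were 1 higher and 6 lower of 7 tested, with a median of -0.077 and 0 past the threshold. Ldb1 was the most abundant (96.5 ± 5.40 and 100.5 ± 6.81 TPM, SD, n = 4), and Lmo2 had the lowest p (1.43 ± 0.139 and 1.77 ± 0.238 TPM, SD, n = 4, adjusted p = 0.811).

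The summed globin was then set against 15 gene lists and the mitochondrially encoded share over the 8 libraries, and 0 of the 16 relations passed after adjustment. The highest Pearson r were 0.747 for red cell enzymes and late erythroid genes (rho 0.714, exact permutation p = 0.0287, adjusted 0.229) and 0.686 for red cell membrane genes (rho 0.571, p = 0.0501, adjusted 0.267). Without WT replicates 2 and 3 they fell to 0.185 and -0.015, so they rest on those libraries. The lowest was -0.77 for endothelial cells (rho -0.74, exact permutation p = 0.0243, adjusted 0.229), and it was -0.83 without those libraries. Endothelial markers were led by Cdh5, vascular cadherin, at 14.7, 11.7, 5.99 and 10.4 TPM in PGR-A KO and 21.9, 22.5, 11.7 and 10.4 TPM in WT. WT replicate 2, the library lowest in globin, held the highest Cdh5 level.

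Markers of the other blood cells gave no relation past the threshold, or were too low for one. Monocyte and macrophage markers gave an r of 0.0997 (rho 0.310), neutrophil markers -0.085 (rho -0.29), T and NK cell markers -0.31 (rho -0.45) and B cell markers 0.610 (rho 0.738, exact permutation p of rho 0.0458, adjusted 0.307). Only 2 of 11 platelet markers passed the filter, too few for a relation, and 9 averaged under 1 TPM. The most abundant markers were Lyz2 (42.9 ± 18.4 TPM in PGR-A KO and 57.8 ± 10.7 TPM in WT, SD, n = 4) for macrophages, Camp (8.29 ± 2.54 and 5.91 ± 1.97 TPM) for neutrophils, Trbc2 (8.54 ± 2.26 and 6.21 ± 1.96 TPM) for T cells, Ighm (3.67 ± 0.847 and 4.08 ± 0.519 TPM) for B cells and Pf4 (4.58 ± 2.96 and 5.05 ± 2.09 TPM) for platelets. These are the highest members of their lists and do not stand for the level of each cell type. In the neutrophil list and in the T and NK cell list 6 of 10 markers averaged under 1 TPM, and 4 of 7 did for B cells. Ly6g of neutrophils averaged 0.0659 TPM over PGR-A KO and 0.115 TPM over WT, and Cd3e of T cells 0.0627 and 0.0265 TPM. The summed level of all 12 macrophage markers was 55.6 to 119 TPM in PGR-A KO and 86.8 to 121 TPM in WT.

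Markers of follicle cells gave no relation past the threshold either. The r was -0.16 for granulosa markers (rho -0.048), -0.24 for ovulatory response genes (rho -0.36), 0.669 for oocyte markers (rho 0.548, exact permutation p = 0.0690, adjusted 0.276) and -0.0054 for theca and stroma (rho 0.024). For heme synthesis it was 0.176 (rho -0.14), for heme breakdown and clearance 0.091 (rho 0.286), for iron handling 0.309 (rho 0.071), for erythroid transcription factors -0.081 (rho -0.29) and for the mitochondrially encoded share -0.18 (rho -0.14). Without WT replicates 2 and 3 several of these values moved far: heme synthesis to -0.80, erythroid transcription factors to -0.76, iron handling to -0.25 and the mitochondrially encoded share to 0.628. Theca and stroma went to -0.37, ovulatory response genes to -0.51, oocyte markers to 0.295, granulosa markers to -0.075, and heme breakdown and clearance to -0.057. Macrophages went to 0.510, neutrophils to 0.321, T and NK cells to -0.48 and B cells to 0.646. With 8 libraries a p that misses the threshold does not show that a relation is absent.

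Between genotypes 0 genes of the cell type lists passed the threshold. Of those tested, 1 macrophage marker was higher and 8 lower (lowest p C1qc, a complement subunit, 4.60 ± 1.60 TPM over PGR-A KO and 7.27 ± 0.959 over WT, limma adjusted p = 0.742), with a list median of -0.36. Neutrophil markers were 2 higher and 2 lower (median 0.12), T and NK cell markers 4 higher and 0 lower (median 0.29), and B cell markers 1 higher and 2 lower (median -0.13, lowest p Igkc, adjusted p = 0.845). For T and NK cells these counts cover only 4 of 10 listed markers. The T cell receptor genes Cd3e and Cd3d were under the filter, so the counts are no measure of T cell content. Both tested platelet markers were lower (median -0.12). Endothelial markers were 2 higher and 6 lower (median -0.17, lowest p Erg, adjusted p = 0.796). Granulosa markers were 1 higher and 9 lower (median -0.22), with the lowest p for the activin antagonist Fst (adjusted p = 0.738). Ovulatory genes were 11 higher and 1 lower (median 0.36), with Star, the cholesterol carrier of steroid synthesis, the most abundant (811 ± 234 and 755 ± 263 TPM). Oocyte markers were 10 higher and 0 lower (median 0.24), with Gdf9 the most abundant (239.6 ± 62.2 and 205 ± 55.3 TPM) and Padi6 lowest in p (adjusted p = 0.857). Theca and stroma markers were 3 higher and 6 lower (median -0.11), with Col3a1 the most abundant (52.3 ± 11.2 and 46.0 ± 4.63 TPM) and Tagln lowest in p (adjusted p = 0.789).

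**Figure D4:**
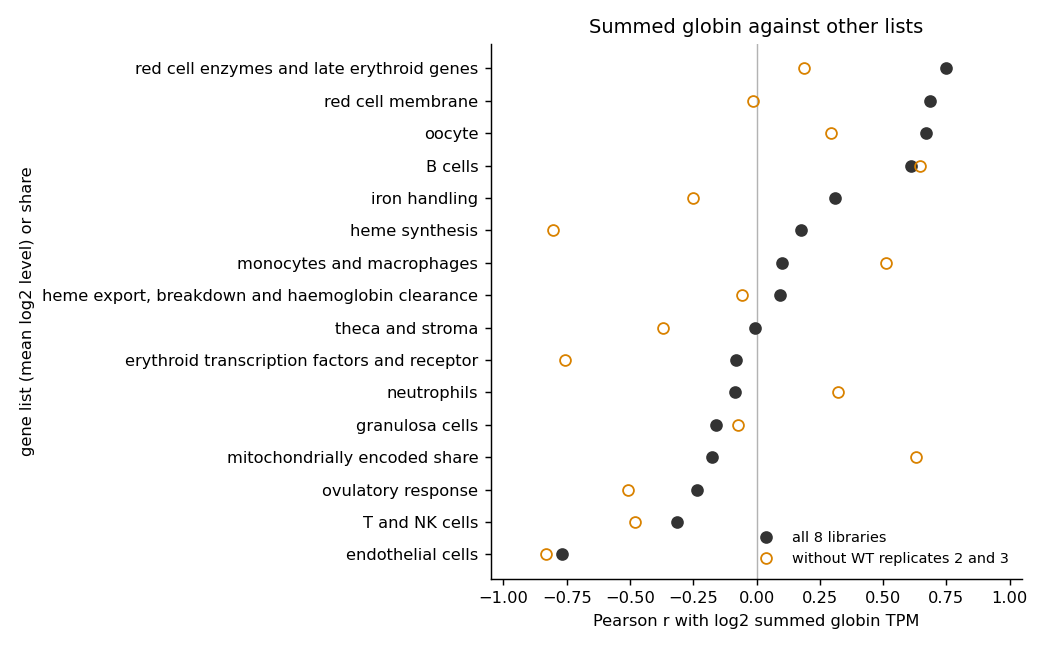
Pearson's r between log2 summed globin TPM and the mean log2 level of each gene list (or the mitochondrially encoded share) over all 8 libraries (filled) and without WT replicates 2 and 3 (open). Red cell enzymes and membrane genes drop from 0.747 and 0.686 to 0.185 and -0.015, while endothelial cells go from -0.77 to -0.83.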

How the data were processed

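Granulosa cell mRNA of 4 PGR-A KO and 4 WT pools of mice was sequenced as paired-end reads from stranded mRNA libraries, per the labels' protocols. The deposited values are TPM per gene symbol in 1 table. The submitters' processing notes name mm10 as build and, with neither versions nor roles, Salmon, FastQC, edgeR and limma. The annotation, and how near-identical transcripts were summed to genes, are not stated in the labels. The deposited TPM sum to 994519 to 997022 per library and keep no depth, so there are no counting intervals. A p-value reflects only how far these pools differ, which may be partly technical.

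Genes reaching 1 TPM in 4 or more libraries were fitted by limma 3.58.1 (R 4.3.3; empirical Bayes with a trend) on log2(TPM + 1), with genotype alone. P-values are 2-sided and Benjamini-Hochberg adjusted, with a threshold of 0.05. A fold change on this scale understates that of low genes. Sums, ratios and correlations used exact permutations of libraries in Python 3.11.15. The fit was checked on simulated data. Positions and transcripts came from GENCODE M21, and promoters, matched for 5 of 5 genes, from RefSeq on GRCm38.p6, the assembly mm10 corresponds to.

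The 5 genes, the 18 lists and the tests were chosen with earlier results of these data known. Named genes were the 5 members, the most abundant and lowest-p member of each list, and the 10 genes most like the summed globin (mean of 5 TPM or more, no unnamed models or pseudogenes). Other genes named (Slc4a1, Hbq1a, Gata1, Klf1, Rhag, Alas1, Hmox1, S100a8, S100a9, Ltf, Cd3e, Cd3d, Ly6g) come from the lists and were chosen after their values were seen. Alternatives were pseudocounts of 0.1 and 5, no filter and a minimum of 5 TPM. They also included median-of-ratios scaling, quantile normalization, removal of globin or mitochondrially encoded genes, limma without trend or robust, a replicate block, and each library left out.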

Additional observations from a re-analysis of the deposited data

Results flagged for a closer look

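Among the named genes and globin quantities, 104 groups of 4 libraries were searched for a library far from the other 3, and 4 were found, where chance gives about 5.2. None was a globin, Alas2 or one of their ratios. Ftl1 was high in WT replicate 1 (1681 TPM) and Tmod1 was high in the same library (7.21 TPM). Lyz2 (70.3 TPM) and Map7 (9.70 TPM) were high in PGR-A KO replicate 3.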

How the results depend on the processing

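None of the 5 genes passed the threshold in any alternative that tested them all, and none of the listed genes did. Over the whole table, 2 genes passed; the count was 1 with a pseudocount of 5, 3 with 0.1, and 0 to 6 when any library was left out (0 without WT replicate 2, 6 without PGR-A KO replicate 3). With a library left out the log2 difference ran from -0.36 to 0.54 for Hba-a1, from -0.32 to 0.58 for Hba-a2, from -0.29 to 0.63 for Hbb-bs, from -0.17 to 0.71 for Hbb-bt and from -0.092 to 0.71 for Alas2; it turned sign without WT replicate 2, and for Hba-a1 also without PGR-A KO replicate 3. The log2 difference of summed globin ran from -0.31 to 0.60, and on the linear scale it was -465 TPM. The 10 correlations between members kept their side of the threshold in 110 of 110 alternatives, and the 4 ratios in 40 of 40.

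Some list correlations near 0 turned sign. With median-of-ratios scaling r was -0.050 for heme synthesis and -0.049 for heme breakdown and clearance, and with group means subtracted it was 0.041 for theca and stroma. With a library left out r ran from -0.56 to 0.373 (heme synthesis), from -0.0049 to 0.176 (heme breakdown and clearance), from -0.055 to 0.406 (iron handling), from -0.39 to 0.195 (erythroid factors), from -0.29 to 0.334 (neutrophils), from -0.68 to 0.059 (T and NK cells), from -0.015 to 0.402 (macrophages), from -0.80 to 0.702 (granulosa cells), from -0.76 to 0.591 (theca and stroma) and from -0.35 to 0.117 (mitochondrial share). Endothelial markers ran from -0.87 to -0.52 and passed without WT replicate 3 (adjusted p = 0.0381). The log2 difference of Pf4 ran from -0.52 to 0.066. The cause was not tested.

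The replicate numbers are shared by the genotypes, but same-numbered libraries deviated together in only some pairs, with correlations of 0.361, -0.11, 0.393 and -0.29 for numbers 1 to 4, so the numbers were not used as pairs. With a replicate block the fit still called 2 genes, and log2 differences were unchanged, 0.177 for Hbb-bs, with an adjusted p of 0.906. Depth cannot be read from TPM, and the spread of WT replicates 2 and 3 limits each comparison between genotypes.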

Other observations

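The listed neutrophil markers did not share 1 order of libraries. S100a9, a subunit of calprotectin, reached 14.9 TPM in replicate 3 of PGR-A KO and 11.9 TPM in WT replicate 4, and stood at 1.02 to 3.12 TPM in the other 6 libraries. Its partner S100a8 stood at 8.32 and 10.1 TPM in the same libraries and at 0.774 to 1.41 TPM elsewhere. In summed globin those libraries were at positions 2 and 4 of 8. WT replicate 3, with the most globin, held 1.02 TPM of S100a9, the lowest value of the 8. The other tested markers ran differently. Camp was highest in PGR-A KO replicate 2 (11.5 TPM) and reached only 5.33 TPM in replicate 3 of that genotype, and Ltf was highest in PGR-A KO replicate 2 (10.96 TPM). S100a8, S100a9 and Ltf were named after their values were seen, and no test was made.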
